A study of Mus musculus with 6 samples.

Results

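The subject is a set of 37 T cell and NK cell genes in adipose tissue of mouse offspring, read from the deposited table of array values. Probe sets whose platform annotation gave 1 gene symbol equal to a member were taken, and the brightest on average over the 6 arrays stood for the gene. This gave values for 34 of the 37, among 22180 genes in all. For Cd247, Lck and Tcf7 no such probe set was found in the table, and they were not analysed here.

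Offspring of dams fed a chromium restriction diet (3 arrays) were compared with offspring of dams fed a control diet (3 arrays), all aged 32 weeks. Each array held biotin-labelled total RNA of adipose tissue. The sources used here do not give the mouse strain, the sex, the fat depot or the offspring's own diet. Nothing in the labels states that each sample was a different animal or litter, so the p-values cover only the variation among these 6 samples, which may be technical.

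T cells recognise antigen through a receptor whose signal is carried by the CD3 chains, and CD4 or CD8 sets helper cells apart from killer cells. Naive T cells carry CCR7 and the interleukin 7 receptor and circulate through lymph nodes. Regulatory T cells, which express Foxp3, are known as residents of visceral fat, where they restrain inflammation. Cytotoxic T cells and NK cells kill with perforin and granzymes and release interferon gamma. The members were read in 4 classes: pan-T (13 of 15 measured), naive and memory (3 of 4), helper and regulatory (4 of 4), and cytotoxic and NK (14 of 14). In whole tissue, more cells of a type and more RNA per cell cannot be told apart.

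All values are on the log2 scale, on which 1 unit is a 2-fold difference. Medians of the arrays ran from 5.44 to 5.57. The fat markers Fabp4, Cidec and Lep lay at 11.75 or above on every array, so the arrays held adipose transcripts as labelled. The arrays were not alike in other ways. Alb, the albumin gene of liver, ran from 9.17 to 9.98 on 4 arrays but reached 13.72 in replicate 1 and 13.55 in replicate 3 of the chromium restriction group. Sis, sucrase-isomaltase of the intestinal lining, was at 7.09 in chromium restriction replicate 2 and at 4.53 to 4.62 elsewhere. Counts of higher means among the members and in each list are therefore given with and without replicate 2. None of the 34 members lay in a row whose values carried more digits than the rest of the table.

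Most of the T cell genes were highest in 1 array of the chromium restriction group. Replicate 2 held the highest value of 26 of the 34 members, while it held the highest value of 12.9% of all genes. In 7 members its value stood at least 1 log2 unit above the highest of the other 5 arrays, which was so for 0.248% of all genes (55 genes). These 7 were Il7r, Cd3g, Cd8b1, Cd4, Cd8a, Cd3e and Ccr7. No cytotoxic or regulatory gene was among them.

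For 4 of those 7 genes RefSeq (GRCm38.p6) gave a promoter, and the 250 bases before the start are shown because these genes stood highest together on 1 array. Short motifs were searched on both strands: the RUNX core TGTGGT, the ETS motif GGAAGT, the GATA motif AGATAA and the TCF and LEF motif CTTTGA. Capitals mark matches, on whichever strand, and no matches overlap.
Il7r, chr15:9529877-9530126, minus strand: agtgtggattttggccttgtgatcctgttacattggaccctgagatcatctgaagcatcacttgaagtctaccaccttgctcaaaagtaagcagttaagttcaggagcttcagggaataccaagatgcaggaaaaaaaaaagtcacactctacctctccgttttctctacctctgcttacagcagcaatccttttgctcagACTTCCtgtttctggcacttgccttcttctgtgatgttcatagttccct
Cd3g, chr9:44980432-44980681, minus strand: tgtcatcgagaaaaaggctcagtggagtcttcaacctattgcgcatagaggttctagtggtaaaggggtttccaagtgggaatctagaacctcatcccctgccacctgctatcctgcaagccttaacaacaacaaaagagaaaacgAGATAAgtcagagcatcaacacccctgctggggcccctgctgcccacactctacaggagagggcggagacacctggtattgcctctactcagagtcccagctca
Cd8a, chr6:71373177-71373426, plus strand: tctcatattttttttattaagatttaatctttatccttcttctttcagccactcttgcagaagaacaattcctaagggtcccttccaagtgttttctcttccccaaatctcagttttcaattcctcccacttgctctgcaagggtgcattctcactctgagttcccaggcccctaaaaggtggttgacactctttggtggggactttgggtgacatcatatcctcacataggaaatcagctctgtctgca
Cd3e, chr9:45009612-45009861, minus strand: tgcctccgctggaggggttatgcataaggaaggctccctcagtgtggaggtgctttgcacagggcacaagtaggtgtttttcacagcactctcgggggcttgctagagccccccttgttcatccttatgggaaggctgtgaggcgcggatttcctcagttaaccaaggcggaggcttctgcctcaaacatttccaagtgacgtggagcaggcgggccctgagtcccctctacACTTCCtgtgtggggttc

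The ETS motif lay 49 bases before the start of Il7r and 18 bases before that of Cd3e. The GATA motif lay 104 bases before the start of Cd3g, and the Cd8a window held none of the 4 motifs. Of 32851 windows of 250 bases in the table, 19.7% held the ETS motif, 9.99% the GATA motif, 14% the RUNX core and 13.8% the TCF and LEF motif. Of 24 measured members with a window, 8 held the ETS motif, 1 the GATA motif, 9 the RUNX core and 3 the TCF and LEF motif, counting the first window of each gene. A match is a run of letters, not a measured site.

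In the pan-T class the CD3 chains of the receptor complex came first. Values are given in the order of replicates 1, 2 and 3, first for the chromium restriction arrays and then against the controls. Cd3g, the gamma chain, was at 5.87, 8.18 and 6.30 against 6.59, 5.78 and 6.29. Cd3e, the epsilon chain, was at 5.92, 7.76 and 6.03 against 6.61, 6.19 and 5.97. Both were high in replicate 2 alone, and the remaining chromium restriction arrays lay among or below the controls. Cd3d, the delta chain, was at 5.41, 5.84 and 5.32 against 5.32, 5.18 and 5.29. Its lowest chromium restriction value lay at the upper edge of the controls, so the groups did not overlap but nearly touched.

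The coreceptors were also highest in replicate 2. Cd4, the helper coreceptor, was at 5.64, 7.11 and 5.82 against 5.71, 5.75 and 5.77. Cd8a and Cd8b1 encode the chains of the killer cell coreceptor. Cd8a was at 5.25, 6.63 and 5.23 against 5.43, 5.45 and 5.35, and Cd8b1 at 6.05, 7.44 and 5.59 against 5.76, 5.91 and 5.88. Replicate 3 also lay above every control for Cd4, and replicate 1 for Cd8b1, both by far less. Against the mean of the controls, replicate 2 was higher by 1.36 for Cd4, 1.22 for Cd8a and 1.59 for Cd8b1. Helper and killer coreceptors were therefore both raised on this array, while the 3 controls spread by an SD of only 0.03 to 0.08.

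Adhesion and signalling genes of T cells were also highest in replicate 2. Lat, the adaptor that links the receptor to its downstream enzymes, was at 6.10, 6.97 and 6.04 against 6.17, 5.88 and 5.83. Cd2, an adhesion receptor, was at 5.77, 6.65 and 5.46 against 5.57, 5.88 and 5.56. Cd5 and Cd6, which dampen receptor signals, stood 0.46 and 0.28 above the control mean in replicate 2, and the kinase gene Zap70 0.29. All 13 pan-T genes were above every control in replicate 2, a position that 18.8% of all genes held; over the 34 members it was 29.

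Thy1 and Cd28 had another pattern. Thy1, a surface glycoprotein of T cells that fibroblasts also carry, was at 7.37, 6.91 and 6.89 against 6.64, 6.78 and 6.70. It was highest in replicate 1, not 2, and all 3 chromium restriction arrays lay above the controls. Its difference was 0.35 ± 0.14 (SE, n = 3 per group), with an unadjusted p of 0.0497 and an adjusted p of 0.817 in limma. Cd28, the costimulatory receptor, was at 5.60, 5.80 and 5.55 against 5.23, 5.52 and 5.40, a difference of 0.27 ± 0.11 (SE, limma adjusted p = 0.817). Its highest control lay just below its lowest chromium restriction array.

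Naive and memory genes gave the widest separation of replicate 2. Il7r, the receptor for the survival signal interleukin 7, was at 6.32, 8.09 and 6.11 against 6.38, 5.76 and 6.26. Ccr7, which guides T cells into lymph nodes, was at 5.95, 7.28 and 5.94 against 5.64, 6.03 and 6.16. Lef1, a transcription factor of naive T cells, was at 5.50, 6.39 and 5.38 against 5.37, 5.51 and 5.36. For all 3 genes replicates 1 and 3 lay within the range of the controls. Replicate 2 exceeded the control mean by a median of 1.33 over the 3 naive genes and 0.98 over the 13 pan-T genes.

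Over the 4 helper and regulatory genes the median excess of replicate 2 was 0.32. Foxp3, the defining factor of regulatory T cells, was at 5.73, 5.72 and 5.23 against 5.30, 5.53 and 5.62. Gata3, a factor of helper type 2 cells and innate lymphoid cells, was at 6.06, 5.64 and 5.96 against 6.15, 5.91 and 5.73, and was lowest in replicate 2. The groups overlapped widely for both. A dimmer probe set of Gata3 read 5.92, 5.71 and 5.53 against 5.50, 5.79 and 5.42, again with overlap. Icos and Ctla4, the activating and inhibitory relatives of Cd28, were highest in replicate 2, at 6.26 and 5.10. Icos was otherwise lower in the chromium restriction group, at 5.41 and 5.58 against controls of 5.73 to 5.87. Ctla4 elsewhere lay between 4.64 and 4.83, below the median of every array.

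**Figure D1:**
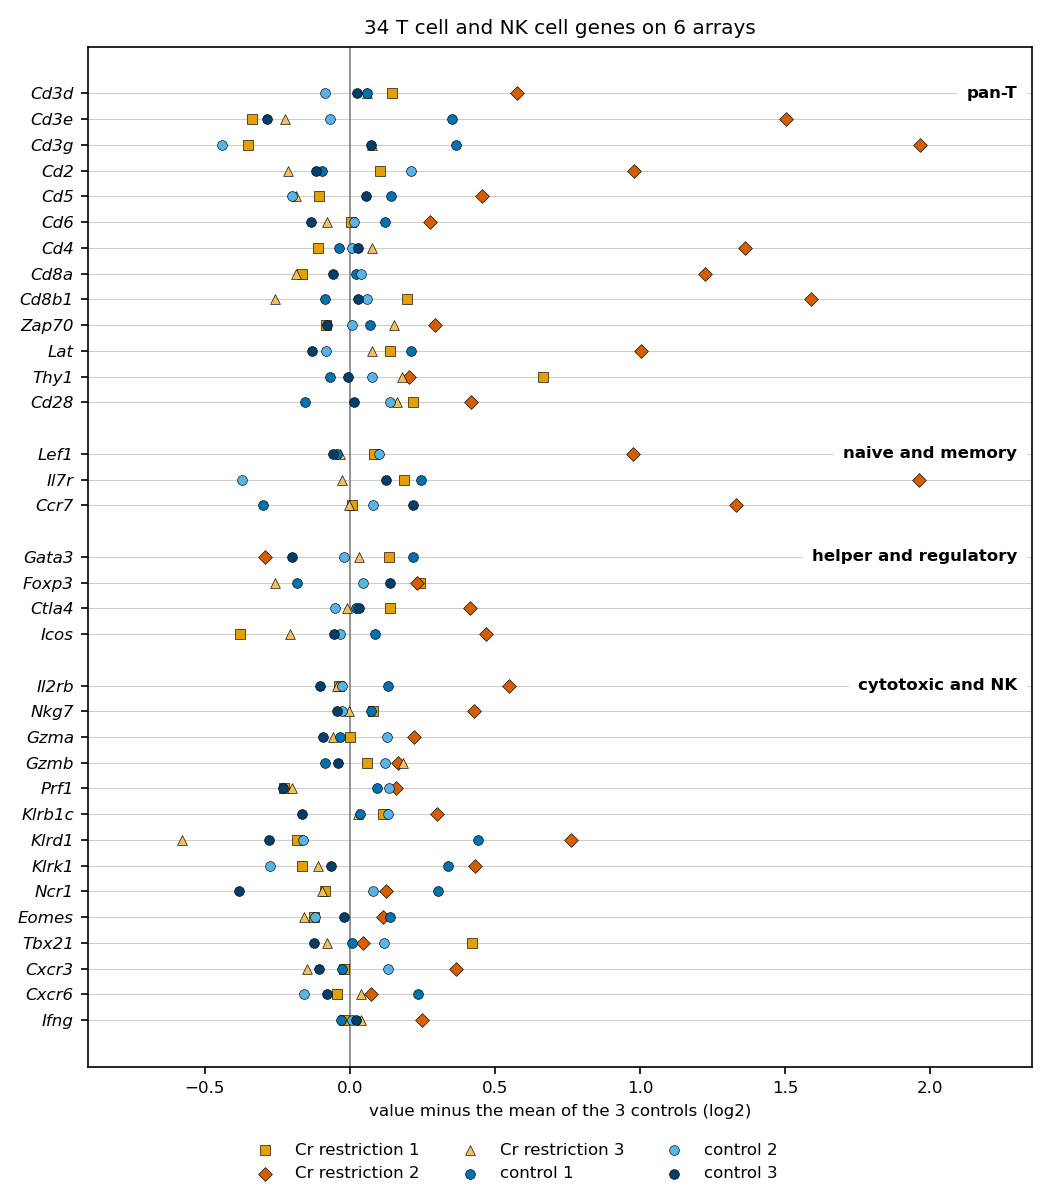
Each row is 1 of 34 genes and each point 1 array, plotted as its value minus the mean of the 3 controls (log2, horizontal axis); squares, diamonds and triangles are chromium restriction replicates 1, 2 and 3 and circles the controls. The diamonds of replicate 2 stand 1.22 to 1.96 to the right for Cd3e, Cd3g, Cd4, Cd8a, Cd8b1, Il7r and Ccr7, and 0.04 to 0.76 to the right for the cytotoxic and NK genes, of which 9 of 14 are highest in replicate 2.

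Cytotoxic and NK genes were mostly highest in replicate 2 as well, by smaller amounts. Replicate 2 held the highest value of 9 of the 14 (12.9% of all genes) and lay above every control in 10 (18.8% of all genes). Against the control mean it was higher by 0.04 to 0.76, with a median of 0.24, and it stood at least 1 log2 unit above the other arrays in 0 of the 14. The effector genes overlapped between groups. Gzma, a granzyme, was at 4.90, 5.12 and 4.84 against 4.86, 5.03 and 4.81, and Gzmb at 4.90, 5.0 and 5.02 against 4.75, 4.96 and 4.80. Prf1, perforin, was at 5.84, 6.22 and 5.87 against 6.16, 6.20 and 5.84. Ifng, interferon gamma, was at 5.23, 5.50 and 5.29 against 5.22 to 5.27. Gzma, Gzmb, Klrb1c and Eomes had means below the lower quartile of all genes (4.98), and the level of the background is not known here.

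Some receptors of NK cells and killer T cells were also high in control replicate 1. Klrd1, the CD94 chain, was at 5.23, 6.18 and 4.84 against 5.86, 5.25 and 5.14. Klrk1, the NKG2D receptor, was at 5.18, 5.78 and 5.23 against 5.68, 5.07 and 5.28. Both were high in chromium restriction replicate 2 and control replicate 1, so the groups overlapped fully. Ncr1, the NK cell receptor NKp46, was highest in control replicate 1, at 5.95, and ran from 5.26 to 5.77 elsewhere. The factor Eomes, at 4.99, and the chemokine receptor Cxcr6, at 5.43, were also highest there. Control replicate 1 was the highest control for 7 of the 14 cytotoxic and NK genes, and likewise for 7 of the 13 pan-T genes and 17 of the 34 members, against 31.2% of all genes.

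The other members of the class differed in which array led. Il2rb, a receptor chain for interleukins 2 and 15, was at 5.49, 6.08 and 5.48 against 5.66, 5.50 and 5.42. Nkg7, a protein of cytotoxic granules, was at 6.24, 6.59 and 6.16 against 6.12 to 6.24. Cxcr3, a chemokine receptor of activated T cells, was highest in replicate 2 at 6.29, with 5.77 to 6.05 elsewhere. Tbx21, the factor T-bet that drives type 1 responses, was instead highest in replicate 1, at 6.33, and ran from 5.78 to 6.02 elsewhere. Klrb1c, the NK1.1 receptor, ran from 4.57 to 5.04 over all 6 arrays. Klrb1c, Klrd1 and Klrk1 belong to a family of like sequences, and cross-hybridisation between its members was not tested.

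**Figure D2:**
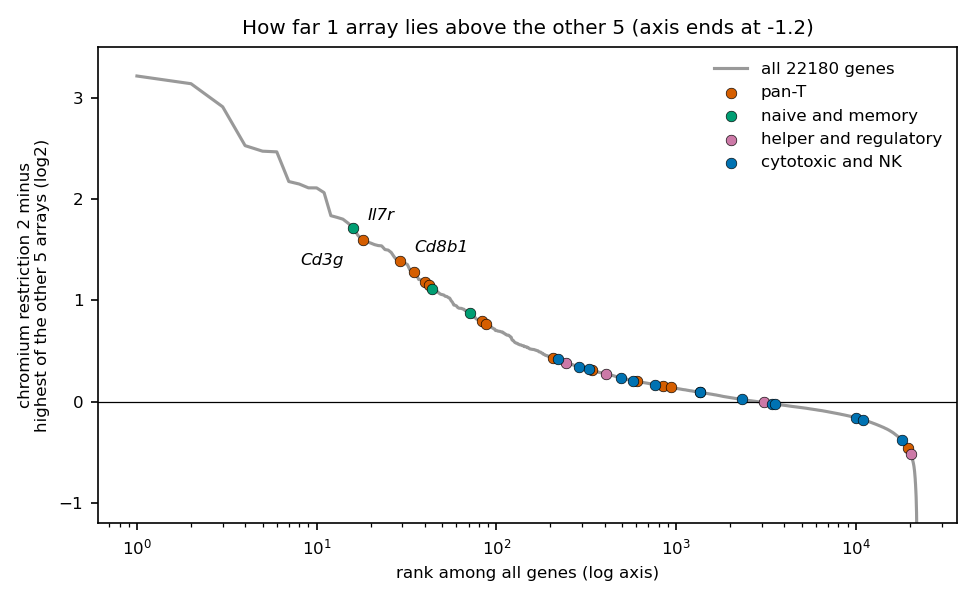
The vertical axis is the value in chromium restriction replicate 2 minus the highest of the other 5 arrays (log2), and the horizontal axis the gene's rank by it (log axis); the grey line is all 22180 genes, points are the 34 members by class, and values below the end of the axis are not drawn. Il7r at rank 16, Cd3g at rank 18 and Cd8b1 at rank 29 lead the members, and cytotoxic and NK genes lie at ranks from 219 on.

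Between the groups 0 of the 34 members passed an adjusted p of 0.05 in limma, where 0.194% of all genes passed (43 of 22180) and 0.0902% passed as higher. Of those 43 genes 40 lay among the 52 genes whose rows carried extra digits, and without these rows 0 genes passed. The smallest adjusted p of a member was 0.817. At an unadjusted p under 0.05 there was 1 member, Thy1, against 5.95% of all genes. The means were higher in the chromium restriction group for 29 of 34 members, against 43.2% of all genes. Over the members the median log2 difference was 0.14, and over all genes -0.018. By class it was 0.45 for naive and memory, 0.29 for pan-T, 0.060 for cytotoxic and NK, and 0.017 for helper and regulatory genes. The last of these was below 0 after quantile normalization (-0.0096) and median centring (-0.019), so it has no settled direction. Groups that did not overlap were found for 3 members, Cd3d, Thy1 and Cd28, all higher, against 3.53% of all genes; 0 members lay wholly lower, against 6.06%.

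The spread within the chromium restriction group was wide relative to these differences. Its SD exceeded that of the controls in 29 of 34 members, against 53.7% of all genes, and the median SD was 0.27 against 0.13. For Cd3g the group means were 6.78 ± 1.23 and 6.22 ± 0.41 (SD, n = 3), and the difference of 0.56 had a 95% interval of -0.89 to 2.02. For Il7r the means were 6.84 ± 1.09 and 6.13 ± 0.33 (SD, n = 3), and the interval of the difference ran from -0.57 to 1.99. Among cytotoxic and NK genes the width of the intervals varied. For Gzmb the difference was 0.14 with an interval of -0.069 to 0.34, and for Gzma 0.055 with -0.20 to 0.31. Both are dim genes, with means below the lower quartile of all genes. For Klrk1 the interval ran from -0.47 to 0.58. For Klrd1 the difference was 0.0011 with a wide interval of -0.89 to 0.90. For Foxp3 it was 0.072, from -0.32 to 0.47.

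Without chromium restriction replicate 2 the direction was lost. The median log2 difference of the members became -0.012, and 15 of 34 means were higher rather than 29. Over all genes the median was then -0.018, and 9829 of 22180 means were higher. The class medians were then -0.030 for pan-T, 0.025 for naive and memory, 0.028 for helper and regulatory, and -0.035 for cytotoxic and NK genes. Cd3g went from 0.56 to -0.14, Cd8a from 0.29 to -0.18, Cd4 from 0.44 to -0.016 and Il7r from 0.71 to 0.080. Thy1, Cd28 and Cd3d, whose groups did not overlap, were among the 15 with higher means, at 0.42, 0.19 and 0.10. With replicate 2 as the lone chromium restriction array against the 3 controls, 0 members passed an adjusted p of 0.05 and 17 had an unadjusted p under 0.05, against 4.18% of all genes. That fit takes the lone array to vary like the controls. The array was also set apart with its high values of these genes already known. The fit therefore cannot test whether the members are raised, and no conclusion is drawn from its counts.

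**Figure D3:**
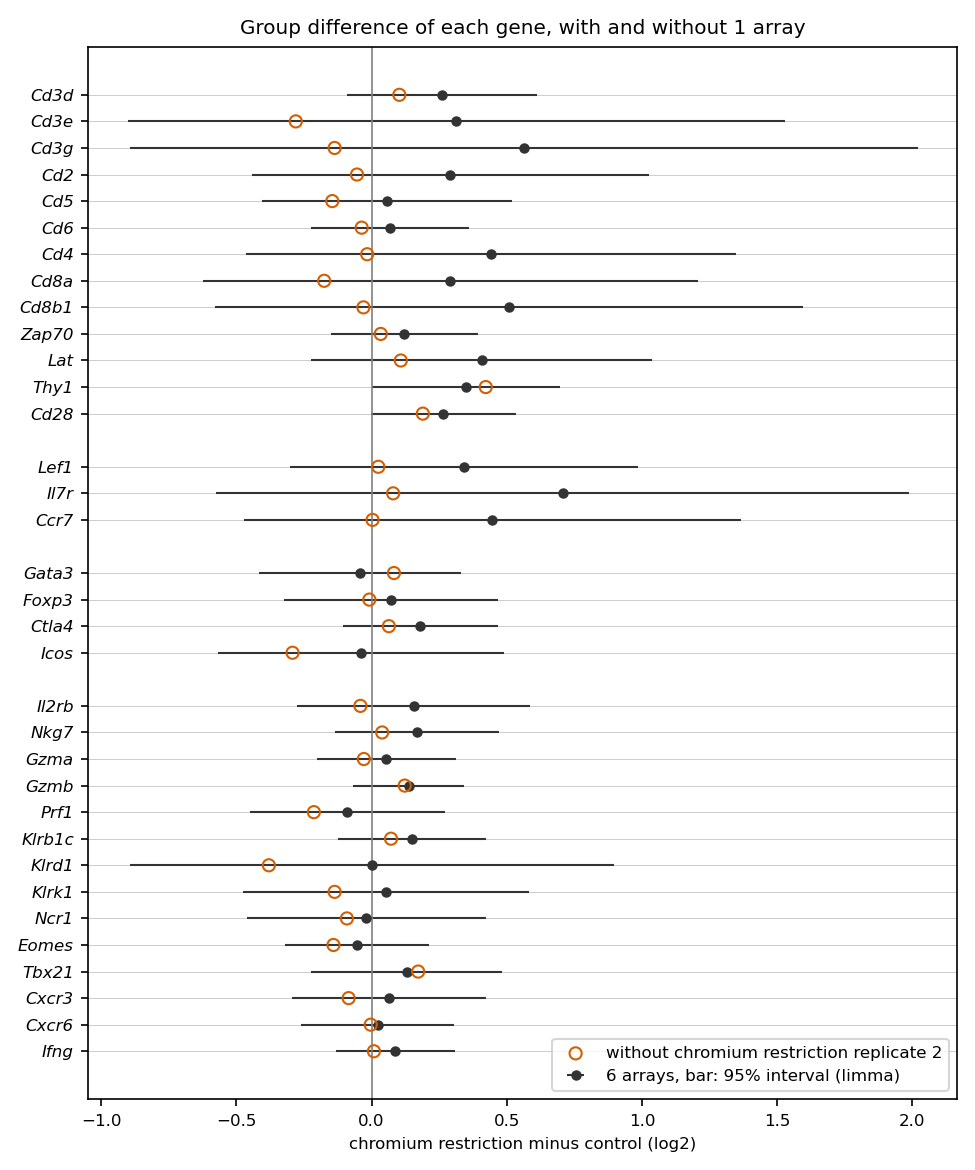
Each row is 1 of 34 genes; filled points are the chromium restriction minus control difference (log2, horizontal axis) over 6 arrays with limma's 95% interval as a bar, and open circles the same difference without chromium restriction replicate 2. Open circles lie close to 0 or to its left for most genes, while those of Thy1 and Cd28 stay at 0.42 and 0.19.

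Other genes of T cell receptor signalling were read from a separate list, of which 27 were measured. Of these 0 passed the test over all genes in either direction, 23 had higher means and 20 were highest in replicate 2. The smallest unadjusted p values belonged to Csk, a kinase that restrains the first kinases of the pathway, at 0.30 ± 0.14, and Lcp2, the adaptor SLP-76, at 0.40 ± 0.19 (log2 difference, SE). Ptprc, the CD45 phosphatase of all leukocytes and the second brightest of the list, was at 8.19, 9.57 and 8.13 against 8.2, 7.98 and 8.04. The brightest, Plcg1, the phospholipase downstream of Lat, differed by -0.22 ± 0.10 (SE).

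Cytokines, chemokines and their receptors formed another list. Of 34 measured 0 passed, 21 had higher means and 9 were highest in replicate 2. Cxcl16, the ligand of Cxcr6, was at 7.68 ± 0.05 against 7.39 ± 0.05 (SD, n = 3), with a limma adjusted p of 0.636. Ccr2, a monocyte chemokine receptor, was at 7.67 ± 0.26 against 7.21 ± 0.19 (SD, n = 3). The brightest, Cxcl9, the ligand of Cxcr3, was at 8.94, 9.62 and 9.86 against 10.04, 9.36 and 10.21, with overlap, and Stat6, a transducer of interleukin 4 signals, differed by 0.088 ± 0.094 (SE). Ccl5, a chemokine that T cells secrete, was at 9.01 in replicate 2 and at 7.11 to 7.53 elsewhere. The T cell growth factor Il2 ran from 4.43 to 4.52 on all 6 arrays.

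Of 19 measured checkpoint and costimulation genes 0 passed and 10 were highest in replicate 2. Btla, an inhibitory receptor of B and T cells, was at 5.69, 7.73 and 5.46 against 6.18, 5.74 and 5.69. Tox, a factor of exhausted T cells, was at 6.04, 6.08 and 5.89 against 6.0, 5.61 and 5.40. Cd274, the ligand PD-L1, differed by -0.32 ± 0.20 (SE). Pdcd1, its receptor PD-1, ran from 5.05 to 5.66 over the arrays, with its highest value in control replicate 2.

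Genes of other cells were high together with the T cell genes in replicate 2, and their part in the result was not tested. Of 17 measured B and plasma cell genes 15 were highest there, and their summed log2 level was 105.5 to 125.7 in the chromium restriction group and 107.8 to 110.0 in the controls. Ighm, the heavy chain of IgM and the brightest gene of this list, was at 10.55, 12.19 and 10.13 against 9.69, 9.33 and 9.42. It was thus above every control in all 3 chromium restriction arrays, by 1.47 ± 0.51 on average (SE, limma adjusted p = 0.805). Ebf1, a factor of B cells and also of fat cells, differed by -0.11 ± 0.16, and Mzb1, a protein of antibody-secreting cells, by 0.20 ± 0.14 (SE). Jchain, the joining chain of secreted antibody, was at 9.34 in replicate 2 and at 4.99 to 6.13 elsewhere. Ms4a1, the B cell protein CD20, was at 7.87 and at 5.41 to 6.52 elsewhere. Of 13 pan-leukocyte genes 11 were highest in replicate 2, with sums of 86.6 to 97.6 and 86.6 to 87.7. Of these Il10ra, an interleukin 10 receptor chain, differed by 0.54 ± 0.13 and Rac2, a small GTPase of blood cells, by 0.52 ± 0.20 (SE). Il10ra was at 6.77, 7.15 and 6.75 against 6.34, 6.28 and 6.42. Il10ra, Cd52 and Laptm5, 3 of the 13, were above every control in all 3 chromium restriction arrays, against 3.53% of all genes. Laptm5 was highest in replicate 1. Among the 55 genes at least 1 log2 unit above all other arrays there, 10 had symbols of immunoglobulin heavy or kappa chain genes, and Trav9d-3, a T cell receptor variable gene, was at 9.53 against 6.64 to 8.28 elsewhere.

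Lymphoid stroma and venule genes were mixed. Of 13 measured 6 were highest in replicate 2, with sums of 80.5 to 89.9 in the chromium restriction group and 80.4 to 84.0 in the controls. Glycam1, a mucin of the venules through which lymphocytes enter lymph nodes, was at 8.03 in replicate 2 and at 4.92 to 5.12 elsewhere. Cxcl13, the B cell chemokine of follicles, was at 7.28, 10.61 and 7.91 against 8.60, 9.87 and 9.01. Ltb, lymphotoxin beta, was at 7.83 in replicate 2 and at 6.13 to 6.53 elsewhere. The lymphatic vessel genes Prox1 and Lyve1 differed by 0.86 ± 0.31 and -0.70 ± 0.49, and Clec4g by 0.84 ± 0.35 (SE), all highest in other arrays than replicate 2. Clec4g was at 6.43, 5.19 and 6.06 against 4.82, 5.48 and 4.85. Both Prox1 and Clec4g were highest in chromium restriction replicates 1 and 3, the arrays with high Alb, while Lyve1 was highest in a control. Whether liver transcripts added to these differences was not tested. Madcam1, the venule address protein of gut lymphoid tissue, was not raised in replicate 2, at 5.36 there and 5.48 to 5.55 elsewhere.

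Some intestinal epithelium genes were raised on the same array. Of 19 measured 1 passed, Fabp2, which was high in all 3 chromium restriction arrays. Its own row carried no extra digits, but it did not pass when the genes in rows with extra digits were left out. In this list 9 were highest in replicate 2, and the summed log2 level was 107.7 to 117.2 in the chromium restriction group and 101.4 to 104.0 in the controls. These sums lean on Fabp2 and Pigr, whose differences of 1.98 and 2.15 were the largest of the list. The list median of the value minus the control mean was 0.10, 0.43 and -0.0086 in chromium restriction replicates 1, 2 and 3. Lgals4, an epithelial galectin, differed by 0.44 ± 0.14 (SE) and was highest in replicate 3. Anpep, a brush border peptidase, differed by 0.33 ± 0.17 (SE) and was highest in replicate 1. Pigr, the receptor that carries IgA across epithelium, differed by 2.15 ± 0.70 (SE). It was at 9.11, 6.36 and 8.73 against 6.21, 5.88 and 5.67, so it was high in replicates 1 and 3 rather than 2. Muc13, an epithelial mucin, was at 7.55 in replicate 2 and at 4.85 to 5.02 elsewhere, and Epcam, an epithelial adhesion protein, at 6.18 and 4.80 to 5.14. Cdx1 and Cdx2, the intestinal identity factors, were at 5.42 and 5.37 there, within the range of the other arrays. Of 10 measured genes of intraepithelial lymphocytes 3 (30%) were highest in replicate 2, against 12.9% of all genes. These were Itgb7, Ccr9 and Entpd1, and the sums of the list were 54.0 to 56.4 and 54.4 to 55.6. Itgb7, an integrin beta chain of gut lymphocytes, was at 6.11, 6.62 and 5.75 against 5.89, 6.02 and 5.85. It differed by 0.24 ± 0.21, Il23r by -0.12 ± 0.14, Ahr by 0.057 ± 0.16 and Entpd1 by 0.094 ± 0.18 (SE). Itgae, the integrin that holds such cells in epithelium, was at 5.68 in replicate 2 and at 5.72 in control replicate 2. Ccr9, the gut homing receptor, ran from 4.48 to 4.79 over all arrays.

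Macrophage and fat genes did not follow the T cell genes. Of 15 macrophage genes 0 were highest in replicate 2 and 12 were highest in replicate 1, with sums of 123.8 to 132.9 and 120.9 to 127.7. Mpeg1 differed by 0.71 ± 0.10, Cd163 by -0.46 ± 0.14, Lyz2 by 0.42 ± 0.30 and Mrc1 by -0.022 ± 0.14 (SE). Of 10 adipocyte genes 0 were highest in replicate 2, with sums of 113.4 to 115.8 and 117.7 to 119.2. One of these, Adipoq, passed as lower, and it lies in a row with extra digits. The lipase genes Pnpla2 and Lpl differed by -0.35 ± 0.11 and -0.055 ± 0.081, and Fabp4 by -0.038 ± 0.079 (SE). Liver genes were highest in replicate 1 for 13 of 14, with sums of 96.5 to 156.7 and 97.0 to 101.6, and in replicate 2 for 0. Apoa1 differed by 3.09 ± 0.68, Hp by 0.90 ± 0.46 and Cyp2e1 by -0.35 ± 0.077 (SE). The sum over 10 pancreas genes ran from 51.5 to 52.9 over the 6 arrays, and Cela1 and Ctrb1 differed by 0.20 ± 0.12 and 0.15 ± 0.11 (SE). No value in the table is 0, so an absent transcript can only be read as a value near the lowest ones. The lowest value of an array was 3.49 to 3.54 in the chromium restriction group and 4.26 to 4.28 in the controls. The highest was 14.77 to 14.86 and 13.81 to 13.89, so the ends of the range differed by group. Lower quartiles were alike, at 4.75 to 4.82 on all 6 arrays.

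Without replicate 2 the count of higher means over all genes went from 9576 to 9829 of 22180. The counts of higher means fell in most lists. They went from 23 to 15 of 27 for receptor signalling, from 21 to 18 of 34 for cytokines and chemokines, and from 12 to 3 of 19 for checkpoint genes. For B and plasma cell genes they went from 14 to 2 of 17, and for pan-leukocyte genes from 13 to 8 of 13. For lymphoid stroma they went from 9 to 7 of 13, for intestinal epithelium from 16 to 13 of 19, and for intraepithelial lymphocyte genes from 7 to 4 of 10. The median difference of the B and plasma cell list went from 0.14 to -0.14, of the checkpoint list from 0.032 to -0.067, of the receptor signalling list from 0.17 to 0.033 and of the intestinal list from 0.30 to 0.035. Macrophage genes went from 11 to 12 of 15 and adipocyte genes from 0 to 1 of 10. Pancreas genes went from 4 to 2 of 10. Liver genes stayed at 13 of 14, and their median difference went from 3.14 to 4.67.

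**Figure D4:**
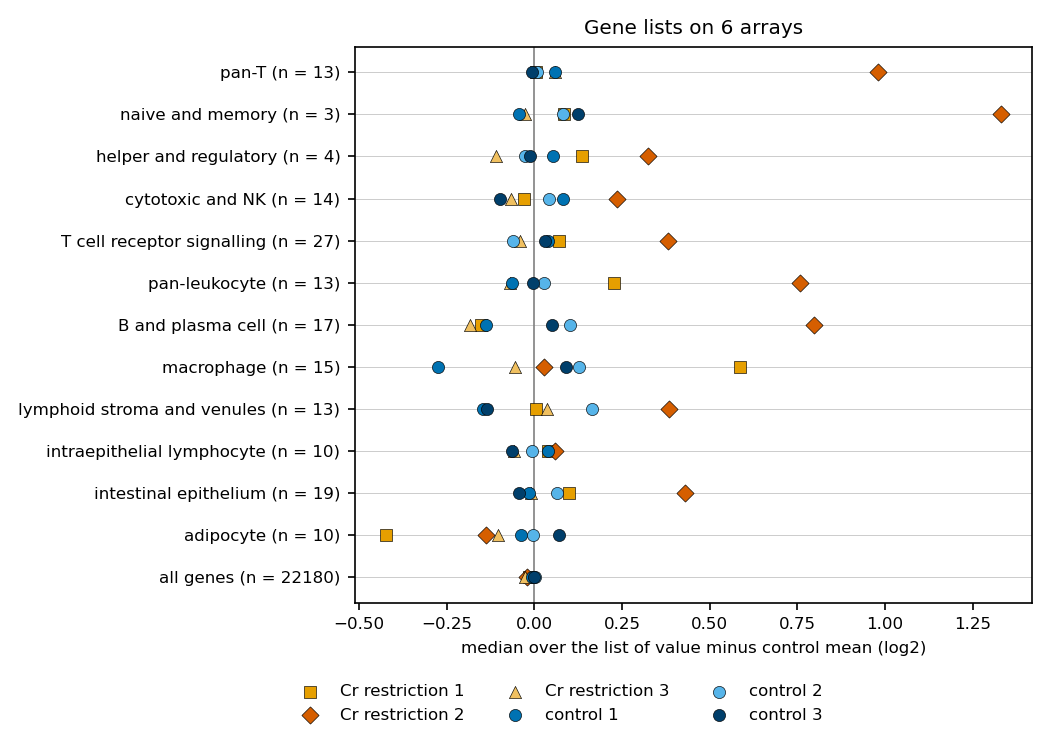
Each row is a gene list with its number of measured genes and each point 1 array, at the median over the list of the value minus the control mean (log2, horizontal axis). Replicate 2 lies farthest right for naive and memory (1.33), pan-T (0.98), B and plasma cell (0.80) and pan-leukocyte genes (0.76), and at 0.060 for intraepithelial lymphocyte genes and 0.028 for macrophage genes; the liver and pancreas lists are not drawn.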

How the data were processed

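The authors deposited 1 table of array values for 33793 probe sets in 6 samples. The deposited values were taken as log2 from their range; the sources used here give no log base, summarisation, normalization or genome build. All 6 value columns were used with no further normalization. Platform annotation gave 1 symbol to 23521 probe sets, several to 1814 and none to 8458. The brightest probe set of each of 22180 genes entered a linear model in limma 3.58.1 (lmFit, then eBayes; R 4.3.3). The contrast was the chromium restriction mean less the control mean. Tests were two-sided, p-values were adjusted over all genes by Benjamini-Hochberg, and calls were made at 0.05. No filter on dim genes was applied, and the number of arrays limits the precision. The fit was tested on simulated data in which both groups varied like the controls. No simulated array stood apart from the rest, so the pattern of replicate 2 was not covered. The members and lists were chosen with earlier results of these data known, as were the alternatives. Every member is named; from other lists the rule named called genes, the 2 with the smallest p and the 2 brightest, and further marker genes were chosen after their values were seen. Same-numbered samples were not treated as pairs. Promoter windows came from RefSeq.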

Additional observations from a re-analysis of the deposited data

How the results depend on the processing

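No member passed an adjusted p of 0.05 in limma under any of the 15 alternatives. When 1 array was left out, 0 to 2 members had an unadjusted p under 0.05. The median difference of the members kept its sign except without chromium restriction replicate 2. The count over all genes was 43; it was 0 without the rows with extra digits (1264 at an unadjusted p under 0.05), 6 without chromium restriction replicates 1 and 3, and 24 to 439 when 1 array was left out: 439 without chromium restriction replicate 2, 36 without chromium restriction replicate 1, and 24 without chromium restriction replicate 3 or without any 1 of the controls. With the replicate number as a block (replicate block) the count over all genes was 0, with 1337 at an unadjusted p under 0.05 in limma. Correlations of same-numbered samples were -0.12, -0.095 and 0.078, and those of the other pairs ran from -0.223 to 0.285. With 3 arrays per group such correlations cannot show whether same-numbered samples were paired. Without chromium restriction replicates 1 and 3 the median difference of the members was 0.42, and Icos (0.47), Prf1 (0.16), Ncr1 (0.13) and Eomes (0.12) turned upward. Quantile normalization turned Klrd1 (-0.031), median centring Klrd1 (-0.036) and Cxcr6 (-0.014), and array weights Cd5 (-0.045), Foxp3 (-0.077), Klrd1 (-0.26), Klrk1 (-0.015) and Cxcr3 (-0.025); the mean of probe sets turned Gata3 (0.054). The helper and regulatory median was 0.017, and -0.0096 after quantile normalization, -0.019 after median centring, -0.051 with array weights and -0.042 over genes above the median gene. Leaving out 1 array gave ranges that crossed 0 for Cd3e (-0.28 to 0.64), Cd3g (-0.14 to 1.02), Cd2 (-0.054 to 0.54), Cd5 (-0.15 to 0.18), Cd6 (-0.036 to 0.14), Cd4 (-0.016 to 0.72), Cd8a (-0.18 to 0.53), Cd8b1 (-0.030 to 0.89), Gata3 (-0.14 to 0.083), Foxp3 (-0.019 to 0.24), Icos (-0.29 to 0.13), Il2rb (-0.041 to 0.26), Gzma (-0.028 to 0.12), Klrd1 (-0.38 to 0.29), Klrk1 (-0.14 to 0.22), Ncr1 (-0.21 to 0.13), Eomes (-0.14 to 0.015), Tbx21 (-0.016 to 0.23), Cxcr3 (-0.085 to 0.17) and Cxcr6 (-0.055 to 0.14). None of these was called, and the cause was not tested. Of the 34 members 13 had a mean above that of the median gene (5.89); for the dimmer ones signal over background is not known.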
